A study of Mus musculus with 9 samples.

Results

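The genes described are 40 cell cycle genes of the gastrocnemius of newborn mice, 16 with a role in S phase, when DNA is copied, and 24 with a role in mitosis, when the copied chromosomes are parted. They were taken from the count table by gene symbol, and the symbols, not a threshold on measured values, define the set, though they were listed with earlier results of these data known. All 40 symbols matched a row, of 55471 gene IDs in the table. RNA of the calf muscle gastrocnemius was sequenced from 5 *Shank3Δ11(-/-)* mice (KO1 to KO5) and 4 *Shank3(+/+)* mice (WT1 to WT4) at postnatal day 0 to 1, with 1 library per mouse. The labels give the strain background of all 9 as C57BL/6, whereas the methods of the study name wildtype C57BL/6 mice and a mating of heterozygous C57BL/6JRj mice. The knock-out animals came from that mating and carry the deletion in the germ line, not in muscle alone. The study compared KO1, KO3 and KO5 with WT1 to WT4 and left out KO2 and KO4 for too few reads. The same 7 mice carry the tests here, and KO2 and KO4 are shown beside them. The labels give neither the sex nor the litter of a mouse.

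Cells enter the cycle when cyclin D and cyclin E kinases release E2F factors, which switch on the genes for DNA replication. The genes for mitosis are switched on later, in G2, by complexes of MuvB with B-Myb and FoxM1 that are brought to promoters by the cell cycle homology region (CHR) and by NF-Y at CCAAT boxes. Muscle fibres have left the cycle for good, whereas myoblasts, fibroblasts, endothelial cells and other cells of a growing newborn muscle still divide. Whole muscle mixes the RNA of both, and in bulk tissue fewer dividing cells and less RNA per dividing cell cannot be told apart.

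Library totals ran from 26444372 counts in KO5 to 40471957 in KO4, so that KO4, left out by the study, had the highest total. KO2, also left out, had 28211941 counts, more than KO5, which was kept. Mitochondrial genes took from 3.81% of the counts in WT4 to 7.88% in KO4. Summed over 10 fibre genes such as *Ckm*, *Acta1* and *Ttn*, muscle fibre transcripts took from 57140 to 64940 CPM, counts scaled to the library, in the 9 mice, which fits the labelled tissue. *Shank3* itself was counted at 25.8 to 35.1 CPM in the 5 *Shank3Δ11(-/-)* mice and at 32.5 to 38.5 CPM in the 4 *Shank3(+/+)* mice. Its log2 fold change of -0.12 (SE 0.12) covers the whole gene and does not check the deletion. *Xist* stood at 926 CPM in KO3, 813 in KO5, 885 in WT3 and 619 in WT4, and between 0.136 and 3.23 CPM in KO1, KO2, KO4, WT1 and WT2. The Y-linked genes *Ddx3y*, *Eif2s3y*, *Kdm5d* and *Uty* divided the mice in the same way, with a mean log2 CPM of 5.11 to 5.53 in the low-*Xist* mice and -3.64 to -2.73 in the others.

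The promoters of the 2 classes differ in their letters, and 8 of them are shown here because they carry the elements named above. RefSeq promoters of GRCm38.p6, from 250 bases before to 50 bases after the transcription start, were at hand for 32 of the 40 genes, 13 of S phase and 19 of mitosis. Each was searched on both strands for E2F letters (TTGGCGC or TTGCCGC or TTCGCGC or TTCCCGC), for CHR letters (TTTGAA or TTTAAA) and for CCAAT. In 2 of the promoters letters of different kinds overlapped. The 120 bases before the start follow 5′ to 3′ on the strand of the gene, in the order *Mcm6* (chr1:128359706-128359825, minus strand), *Rrm1* (chr7:102441575-102441694, plus strand) and *Uhrf1* (chr17:56303217-56303336, plus strand) for S phase, then *Mki67* (chr7:135716380-135716499, minus strand), *Cdk1* (chr10:69352913-69353032, minus strand), *Cdc20* (chr4:118437344-118437463, minus strand), *Kif11* (chr19:37376262-37376381, plus strand) and *Top2a* (chr11:99024190-99024309, minus strand) for mitosis. Capitals mark the letters found on either strand.
Mcm6: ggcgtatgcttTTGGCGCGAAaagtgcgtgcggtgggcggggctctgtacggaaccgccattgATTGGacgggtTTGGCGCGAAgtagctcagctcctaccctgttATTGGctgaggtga
Rrm1: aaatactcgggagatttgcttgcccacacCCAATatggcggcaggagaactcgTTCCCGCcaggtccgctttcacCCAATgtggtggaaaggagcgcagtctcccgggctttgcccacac
Uhrf1: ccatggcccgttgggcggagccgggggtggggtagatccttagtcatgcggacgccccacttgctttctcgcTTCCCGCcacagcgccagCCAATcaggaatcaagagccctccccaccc
Mki67: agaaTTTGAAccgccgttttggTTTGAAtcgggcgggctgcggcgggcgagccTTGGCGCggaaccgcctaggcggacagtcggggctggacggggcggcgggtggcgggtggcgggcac
Cdk1: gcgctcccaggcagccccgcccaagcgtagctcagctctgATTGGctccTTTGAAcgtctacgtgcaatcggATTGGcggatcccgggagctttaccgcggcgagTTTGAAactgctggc
Cdc20: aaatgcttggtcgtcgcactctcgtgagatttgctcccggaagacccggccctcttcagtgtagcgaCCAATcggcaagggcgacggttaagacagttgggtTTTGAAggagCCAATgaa
Kif11: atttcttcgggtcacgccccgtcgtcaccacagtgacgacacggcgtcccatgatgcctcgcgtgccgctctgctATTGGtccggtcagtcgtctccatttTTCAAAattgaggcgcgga
Top2a: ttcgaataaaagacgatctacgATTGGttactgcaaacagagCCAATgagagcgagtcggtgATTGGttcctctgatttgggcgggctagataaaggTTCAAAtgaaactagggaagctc

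E2F letters stood in the promoters of 9 of the 13 S phase genes (69.2%) and of 3 of the 19 mitotic genes (15.8%), against 10.9% of the 27025 genes in the RefSeq table. CHR letters showed the opposite order, with 5 S phase genes (38.5%) and 17 mitotic genes (89.5%), against 30.6% of all genes. CCAAT was found for 9 S phase genes (69.2%) and 17 mitotic genes (89.5%), against 41.1% of all genes. In *Mcm6*, which encodes a subunit of the replicative helicase, E2F letters began 109, 106, 46 and 43 bases before the start, because each run reads as E2F letters on both strands. *Rrm1*, the large subunit of ribonucleotide reductase, held them 67 bases and *Uhrf1*, which recruits the maintenance DNA methyltransferase, 48 bases before the start. Among the mitotic promoters shown, CHR letters within the 120 bases began 15 and 71 bases before the start in *Cdk1*, the mitotic kinase, 18 bases before it in *Cdc20*, an activator of the anaphase-promoting complex, 19 in *Kif11*, the spindle motor Eg5, and 23 in *Top2a*, topoisomerase II alpha. In *Mki67*, which coats mitotic chromosomes, they began 98 and 116 bases before the start, and the gene was among the 3 mitotic genes with E2F letters as well. Of the further replication genes listed beside the 16, E2F letters stood in 64.0% of 25 genes and CHR letters in 36.0%, whereas of the further mitotic genes they stood in 15.4% and 69.2% of 26. A match of letters is a description of these windows and does not show that a factor binds there.

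In level, the 40 genes lay above the middle of the transcriptome. All 40 passed the filter on low counts that left 21809 genes, with 152 to 6443 counts for a gene in a mouse. Per kilobase of merged exons, their median level over the 9 mice was 6.80 CPM per kb, against 3.36 over the 21787 genes with a length. The S phase genes had a median of 9.80 and the mitotic genes of 6.48 CPM per kb. Above the median of all genes lay 35 of the 40, and 12 lay above the upper quartile of 10.01 CPM per kb. Merged exons pool every annotated transcript of a gene, so the order of genes per length depends on the annotation.

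Some of the counts may hold reads of a neighbouring gene, since the sources used here do not say whether reads were counted by strand. In GENCODE M21, 11 of the 40 genes share exon bases with another counted gene, and in 9 of them a gene on the other strand had at least 10% of their count. These are *Ccna2* (with *Exosc9*), *Ccne2* (*Ints8*), *Cdc20* (*Elovl1*), *Cdc25c* (*Gm3550*), *Gins2* (*Gse1*), *Kif20a* (*Cdc23*), *Mcm7* (*Ap4m1* and *Cops6*), *Nusap1* (*Oip5*) and *Prc1* (*Rccd1*). The shared part was largest in *Gins2*, at 67.3% of its exon bases, and smallest in *Cdc20*, at 2.84%. The values of these 9 genes are uncertain by the reads of their partners.

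Among the S phase genes, *Pcna*, the sliding clamp of DNA polymerase, had the highest level per length of all 40, at 29.9 ± 4.79 CPM per kb (SD, n = 9). The helicase genes *Mcm2* to *Mcm7*, which are loaded at origins together, spread from 5.68 ± 0.575 CPM per kb for *Mcm2* to 14.4 ± 1.71 for *Mcm6*. Of the loading factors, *Cdt1* reached 6.79 ± 1.46 CPM per kb and *Cdc6* 1.26 ± 0.217, the lowest of the 40. *Gins2*, a part of the active helicase, stood at 6.28 ± 0.688 CPM per kb. The E cyclins that start replication, *Ccne1* and *Ccne2*, stood at 11.1 ± 0.967 and 4.47 ± 0.637 CPM per kb. Of the enzymes that make the building blocks of DNA, *Rrm2* reached 12.4 ± 2.31, *Rrm1* 5.91 ± 0.789 and *Tyms*, thymidylate synthase, 3.33 ± 0.843 CPM per kb. *Rrm2*, the regulated subunit, thus stood above its partner *Rrm1* per length, with a lowest mouse of *Rrm2* above the highest of *Rrm1*. In CPM the order was reversed, with 25.6 to 42.4 for *Rrm2* and 54.0 to 81.4 for *Rrm1*. The order per length rests on merged exons of 2771 bases in *Rrm2* and 11012 in *Rrm1*.

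Among the mitotic genes, *Ccnb2*, *Ccna2*, *Cdc20*, *Mki67* and *Top2a* had the highest levels per length. The cyclins *Ccnb2* and *Ccna2* stood at 17.5 ± 3.94 and 16.1 ± 2.31 CPM per kb, and *Ccnb1* at 4.89 ± 1.03. *Cdc20*, *Mki67* and *Top2a* followed with 15.8 ± 2.66, 15.6 ± 2.53 and 12.8 ± 2.80 CPM per kb. The kinase *Cdk1* stood at 9.99 ± 2.06, whereas *Cdc25c*, the phosphatase that activates it, was the lowest mitotic gene at 1.40 ± 0.290 CPM per kb. The chromosomal passenger genes *Aurkb* and *Birc5* stood at 8.96 ± 1.46 and 7.91 ± 1.92 CPM per kb. Of the other mitotic kinases, *Plk1* stood at 6.82 ± 1.33, *Aurka* at 4.72 ± 0.913 and the checkpoint kinases *Bub1b*, *Bub1* and *Ttk* at 6.38 ± 0.723, 3.86 ± 0.703 and 2.08 ± 0.346 CPM per kb. Centromere genes followed the order *Cenpa* (5.43 ± 1.09), *Cenpe* (3.86 ± 0.501) and *Cenpf* (2.54 ± 0.353 CPM per kb). The spindle genes *Tpx2* and *Nusap1* stood at 9.16 ± 1.57 and 7.51 ± 1.20, the motors *Kif20a*, *Kif11* and *Kif23* at 6.57 ± 0.401, 4.68 ± 0.696 and 4.26 ± 0.517, and *Prc1*, which bundles the microtubules of the midzone, at 3.51 ± 0.510 CPM per kb.

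**Figure D1:**
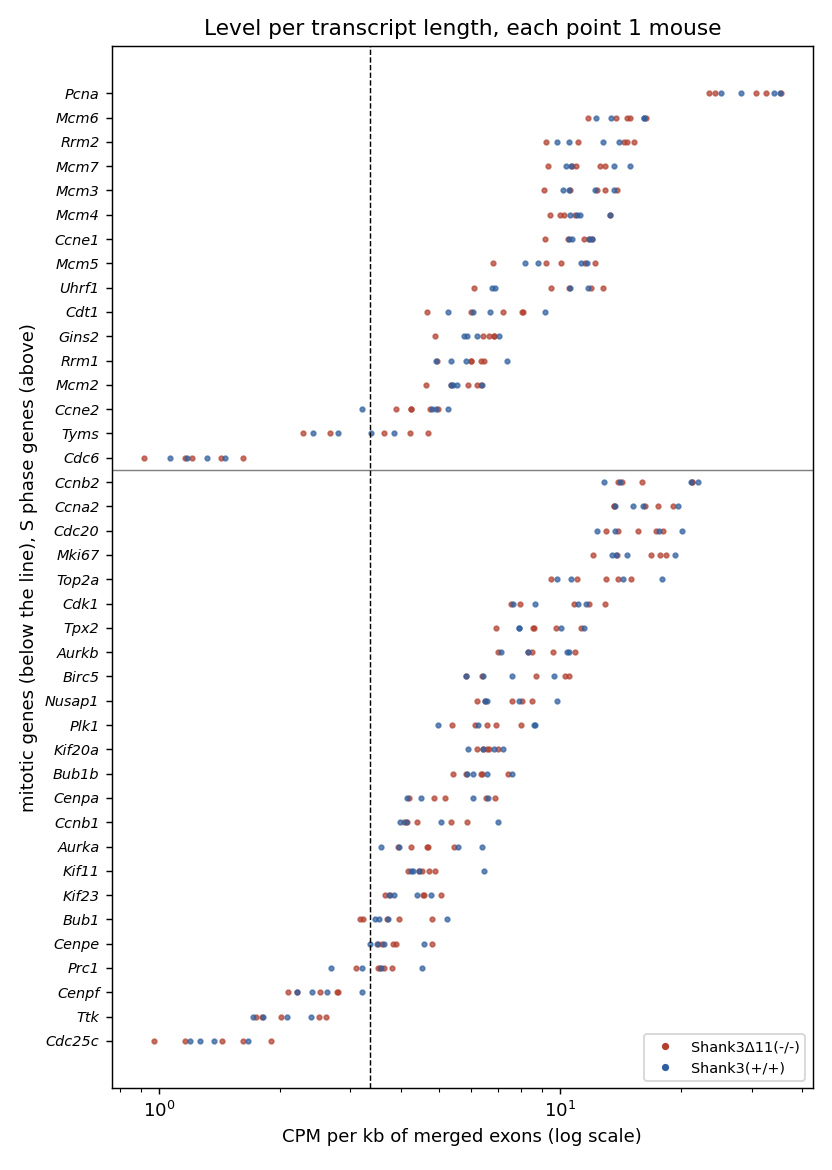
CPM per kb of merged exons (log scale) of each of the 40 genes, 1 point per mouse, red for *Shank3Δ11(-/-)* and blue for *Shank3(+/+)*, with S phase genes above the line, mitotic genes below it and the median of all genes tested as a dashed line at 3.36. *Pcna* stands above the other 39 genes in every mouse, and red and blue points are mixed in every gene.

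The 40 genes varied together from mouse to mouse, and the division did not follow genotype. For a level per mouse, the log2 CPM of each gene was set relative to its mean over the 9 mice and averaged over the genes. The level was highest in WT3 (0.24) and KO3 (0.22), followed by WT4 (0.13), KO4 (0.13) and KO5 (0.05). It was lower in KO2 (-0.10), WT2 (-0.17), WT1 (-0.20) and KO1 (-0.29). Each end of this order thus held mice of both genotypes, and the highest and lowest mouse differed 1.45-fold. Summed over the 40 genes, transcripts took from 1219 CPM in KO1 to 1818 CPM in WT3. Without the 9 genes that may share reads with a partner, the mice kept this order, from -0.32 in KO1 to 0.25 in WT3.

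Gene by gene the division was the same. In KO3 and in WT3 38 of the 40 genes lay above their own mean over the mice, in KO4 33, in WT4 32 and in KO5 27. In KO2 10 genes lay above it, in WT1 2, and in KO1 and WT2 1 each. Of all genes tested, between 47.9% and 52.3% lay above their mean in a mouse. KO1 was the lowest of the 9 mice in 23 genes, WT1 in 8 and WT2 in 4, and WT3 was the highest in 15, KO3 in 10 and WT4 in 7. The lowest mouse was KO1, KO2, WT1 or WT2 in 38 genes. The size of the variation was ordinary, however, with a median SD over the mice of 0.24 on the log2 scale for the 40 genes and 0.23 for all genes tested. From the lowest to the highest mouse a gene differed by a median of 1.61-fold, from 1.22-fold in *Kif20a* to 2.10-fold in *Uhrf1*.

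**Figure D2:**
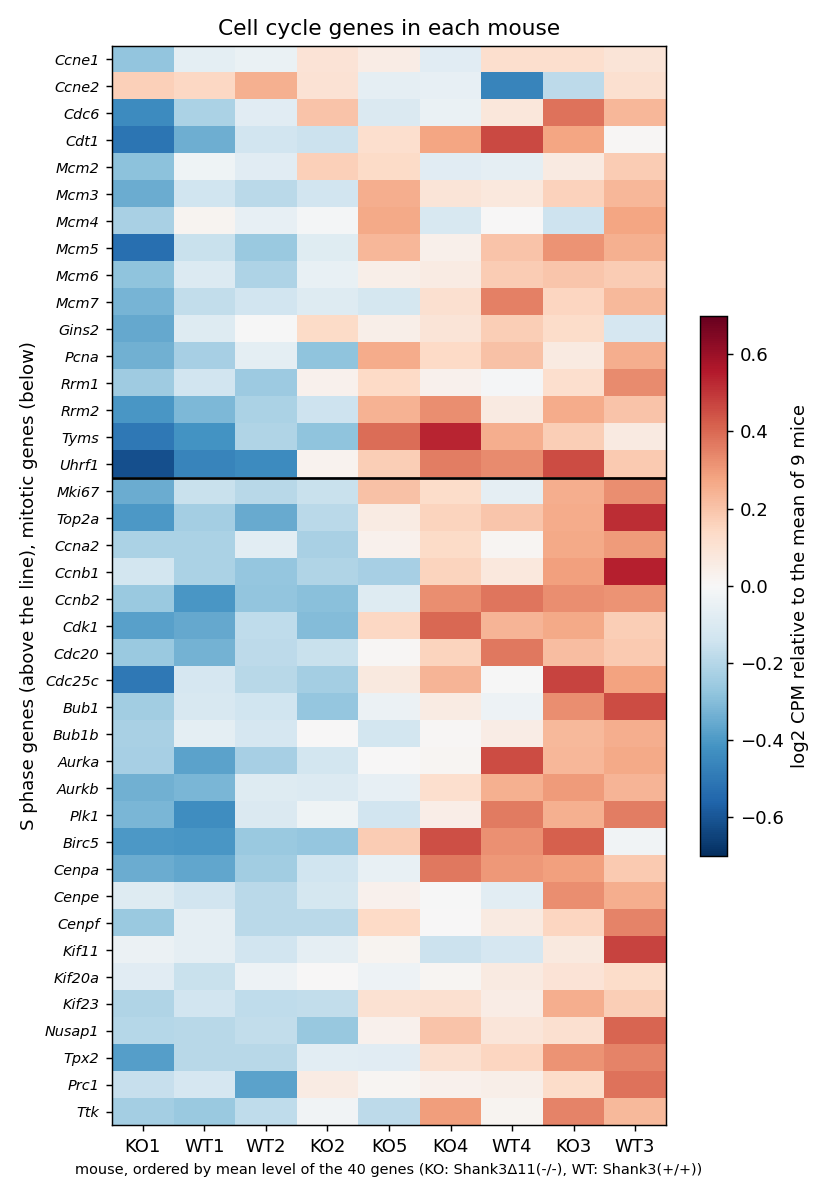
Log2 CPM of each of the 40 genes relative to its mean over the 9 mice, with S phase genes above the line, mitotic genes below it and the mice ordered by their mean level from lowest to highest. KO1, WT1 and WT2 are low and KO3 and WT3 high in most rows, whereas *Ccne2* is high in KO1, WT1 and WT2 and lowest in WT4.

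S phase and mitotic genes followed each other closely. The S phase level was -0.34 in KO1, -0.03 in KO2, 0.16 in KO3, 0.10 in KO4 and 0.13 in KO5. In the *Shank3(+/+)* mice it was -0.17, -0.14, 0.17 and 0.12 in WT1 to WT4. The mitotic level was -0.26, -0.15, 0.26, 0.14 and 0.00 in KO1 to KO5 and -0.23, -0.19, 0.29 and 0.13 in WT1 to WT4. KO1 was the lowest mouse and WT3 the highest in both lists, and the highest and lowest mouse differed 1.43-fold in S phase and 1.47-fold in mitotic level. The levels of the lists had a Pearson r of 0.90 over the 9 mice, a description of mice whose lists share library, depth and normalization. The S phase level less the mitotic level was -0.08, 0.12, -0.10, -0.04 and 0.13 in KO1 to KO5 and 0.06, 0.05, -0.13 and -0.01 in WT1 to WT4. Its mean ± SD was -0.02 ± 0.13 in KO1, KO3 and KO5 and -0.01 ± 0.09 in the 4 *Shank3(+/+)* mice, so the balance of the phases overlapped between genotypes. KO5 and KO2 leaned furthest towards S phase and WT3 and KO3 furthest towards mitosis.

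**Figure D3:**
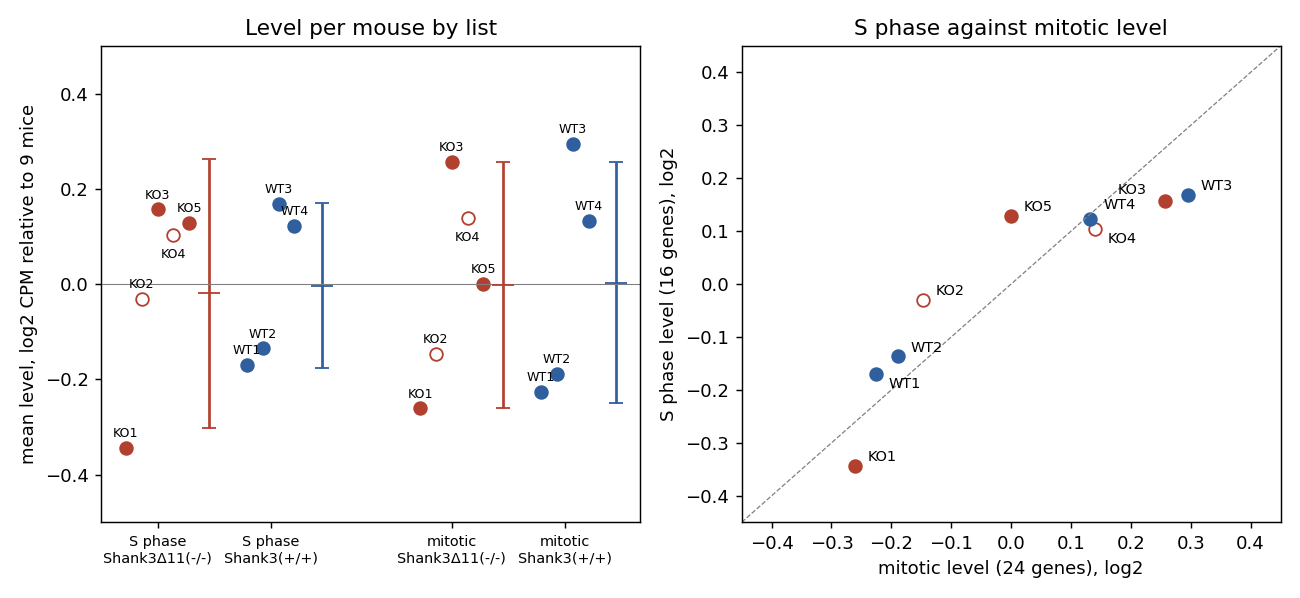
Left, mean S phase and mitotic level of each mouse in log2 CPM relative to the mean of the 9 mice, with the mean ± SD of KO1, KO3 and KO5 and of WT1 to WT4 as bars and KO2 and KO4, left out by the study, as open circles. Right, S phase level against mitotic level with the line of equal levels; the mice lie along it (r = 0.90), KO1 at the low end and KO3 and WT3 at the high end.

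Pairs of mitotic genes were the most alike, with a median r of 0.803 over the 9 mice. Pairs of S phase genes had a median r of 0.697, and pairs across the lists 0.678. With the mean of the other 39 genes, 16 genes had an r above 0.9. It was below 0.5 in *Mcm4* (0.388), *Kif11* (0.483) and *Ccne2* (-0.633). *Ccne2* stood at 17.4, 16.5, 13.6, 14.8 and 14.8 CPM in KO1 to KO5 and at 17.1, 18.4, 16.7 and 11.2 CPM in WT1 to WT4. It was thus high in KO1, WT1 and WT2, where nearly all other genes of the lists were low. *Ccne2* shares 609 exon bases with *Ints8* on the other strand, which had 160% of its count, so reads of the 2 genes cannot be told apart there. These correlations are over 9 mice and carry no test.

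Among the 7 mice compared, the cell cycle level ran along the division by *Xist*. In 29 of the 40 genes (72.5%) the 4 mice with *Xist* above 100 CPM, namely KO3, KO5, WT3 and WT4, all lay above KO1, WT1 and WT2, against 8.21% of all genes tested. This held for 11 of the 16 S phase and 18 of the 24 mitotic genes. It held for 23 of the 31 genes without a partner on the other strand at 10% of their count or more. Since the genes varied together, these counts do not stand for separate observations. *Ccne2* alone lay lower in all 4, and *Cdc6*, *Mcm2*, *Mcm4*, *Gins2*, *Ccnb1*, *Bub1b*, *Plk1*, *Kif11*, *Kif20a* and *Ttk* overlapped. KO2 and KO4 both had low *Xist* but differed in cell cycle level (-0.10 and 0.13). KO4, with *Xist* at 3.23 CPM and Y-linked transcripts, lay above every other low-*Xist* mouse in 31 of the 40 genes, against 32.8% of all genes tested. With KO2 and KO4 counted among the low mice, the high mice lay above all low ones in 2 of the 40 genes, against 1.38% of all genes tested. Within the high-*Xist* mice, the level of KO3 and KO5 differed from that of WT3 and WT4 by -0.05. Within the low-*Xist* mice, KO1 differed from WT1 and WT2 by -0.11, and with KO2 and KO4 added the difference was 0.10. The part of sex in the levels was not tested.

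Between the genotypes no difference was detectable in any of the 40 genes. Of the 40, 14 were higher and 26 lower in *Shank3Δ11(-/-)* than in *Shank3(+/+)* mice. In edgeR, 0 of them reached an unadjusted p below 0.05, against 2.08% of the 21809 genes tested. At the criterion of the study, p below 0.05 with a false discovery rate (FDR) below 25%, 0 of the 40 passed, as did 0.0% of all genes. The study itself reports differentially expressed genes at this criterion, found with limma. Over all genes, 0 passed it here in edgeR and 0 in limma-voom. The FDR of each of the 40 was 1.00. DESeq2 and limma-voom likewise gave 0 of the 40 an unadjusted p below 0.05, against 1.8% and 1.95% of all genes tested, so that a share of 0 among 40 genes lies close to the background in each tool. With all 9 mice, 0 of the 40 had a p below 0.05, against 2.03% of all genes, and the lowest p was 0.346. The ranges of the genotypes over the 7 mice overlapped in all 40 genes, whereas they were apart in 2.84% of all genes tested.

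The fold changes were small and their errors moderate. The median log2 fold change was -0.03 over the 40 genes, -0.03 over the S phase genes (6 higher, 10 lower) and -0.04 over the mitotic genes (8 higher, 16 lower), against -0.01 over all genes tested. Without the 9 genes that overlap a partner, 12 were higher and 19 lower, with a median of -0.03. Over the 40, fold changes ran from -0.18 in *Mcm7* to 0.16 in *Birc5*, with a median size of 0.05, against 0.10 for all genes. The median SE was 0.18, equal to that of all genes. Each 95% interval held 0, and all 40 stayed within a 2-fold change in either direction and 36 within a 1.5-fold change. The lowest bound was -0.62 in *Plk1* and the highest 0.74 in *Uhrf1*. The interval was narrowest in *Kif20a*, from -0.27 to 0.23, and widest in *Uhrf1*, from -0.51 to 0.74, so a 1.5-fold rise of *Uhrf1* lay within its interval.

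The mean level of the 40 genes was -0.01 ± 0.26 in KO1, KO3 and KO5 and 0.00 ± 0.22 in WT1 to WT4. For the S phase genes it was -0.02 ± 0.28 and 0.00 ± 0.17, and for the mitotic genes 0.00 ± 0.26 and 0.00 ± 0.25. The differences between genotypes were thus far smaller than the spread between mice of 1 genotype.

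**Figure D4:**
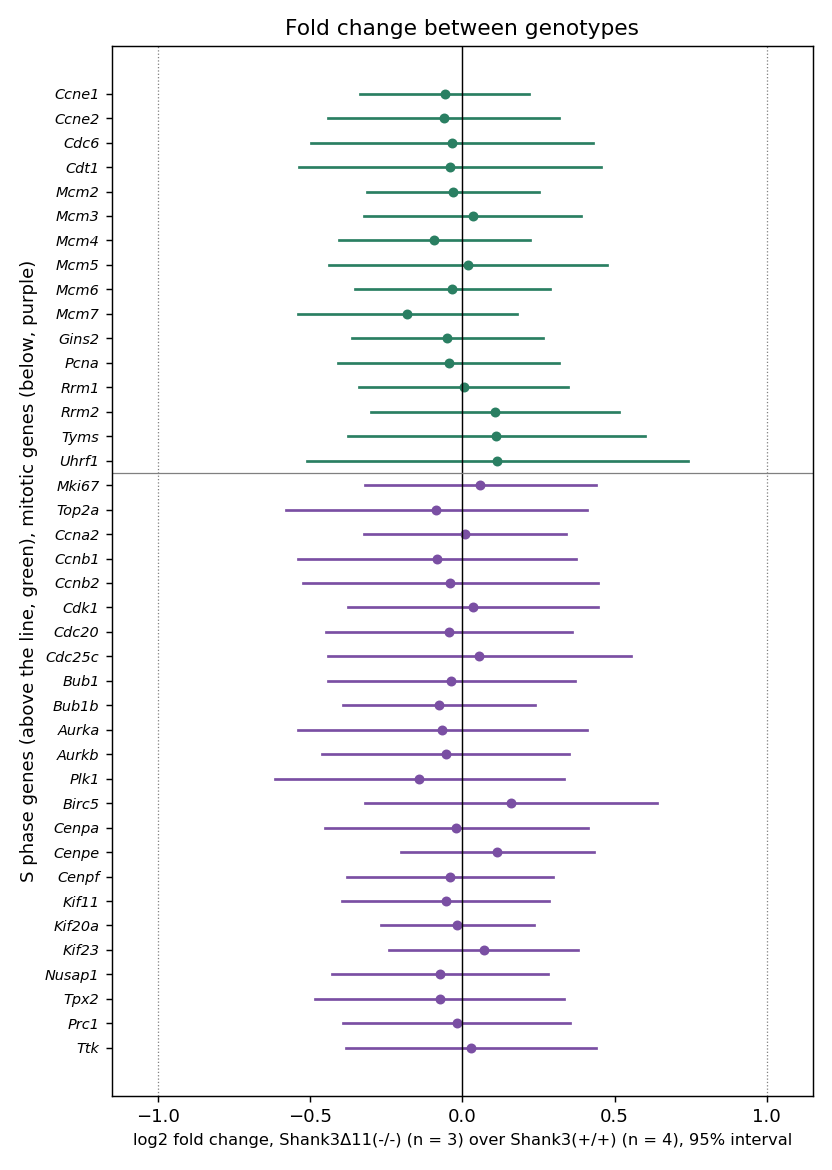
Log2 fold change of each of the 40 genes, *Shank3Δ11(-/-)* (KO1, KO3, KO5) over *Shank3(+/+)* (WT1 to WT4), with its 95% interval from edgeR, S phase genes in green and mitotic genes in purple, and dotted lines at a 2-fold change. All 40 intervals hold 0 and stay inside the dotted lines.

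Of the helicase genes, *Mcm7* (chr5:138164583-138172422, ENSMUSG00000029730) had the smallest p of the 40. It stood at 41.2, 57.3 and 47.5 CPM in KO1, KO3 and KO5, at 45.8, 47.1, 60.3 and 66.0 in WT1 to WT4, and at 48.5 and 55.7 in KO2 and KO4. The ranges overlapped, since KO3 lay above WT1 and WT2. Its log2 fold change was -0.18 (SE 0.16, 95% interval -0.54 to 0.18), with an edgeR p of 0.291 and an exact permutation p of 0.4. *Mcm4* (chr16:15623897-15637400, ENSMUSG00000022673) stood at 33.8, 35.8 and 47.6 CPM against 40.1, 38.0, 47.9 and 39.6, with 39.2 and 36.7 in KO2 and KO4. KO5 and WT3 were the high mice of their groups, and the log2 fold change was -0.09 (SE 0.14, edgeR p = 0.533, exact permutation p = 0.543). *Mcm2* (chr6:88883474-88898780, ENSMUSG00000002870) stood at 32.2, 41.1 and 43.1 CPM against 38.5, 37.2, 44.5 and 37.7, with 44.0 and 37.2 in KO2 and KO4. Its log2 fold change was -0.03 (SE 0.13, edgeR p = 0.806, exact permutation p = 0.857). KO1 was the lowest mouse in each of the 6 *Mcm* genes, and *Mcm3*, *Mcm5* and *Mcm6* ranged from 34.2 to 52.0, 27.2 to 48.6 and 54.8 to 76.2 CPM over the 9 mice.

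*Pcna* (chr2:132249162-132253314, ENSMUSG00000027342) stood at 56.3, 74.0 and 85.1 CPM in KO1, KO3 and KO5, at 60.4, 67.6, 84.6 and 82.0 in WT1 to WT4, and at 58.4 and 78.1 in KO2 and KO4. KO1 lay below every *Shank3(+/+)* mouse and KO5 above every one. The log2 fold change was -0.05 (SE 0.16, edgeR p = 0.788, exact permutation p = 0.857). *Rrm2* (chr12:24708241-24714146, ENSMUSG00000020649) stood at 25.6, 40.5 and 40.1 CPM against 27.2, 29.1, 38.9 and 35.5, with 30.6 and 42.4 in KO2 and KO4. With KO3 and KO5 above all 4 *Shank3(+/+)* mice and KO1 below them, its log2 fold change was 0.11 (SE 0.18, edgeR p = 0.571, exact permutation p = 0.714). *Ccne1* (chr7:38097984-38107534, ENSMUSG00000002068) stood at 24.4, 32.0 and 30.5 CPM against 28.1, 28.6, 31.4 and 31.9, with 31.5 and 27.8 in KO2 and KO4. Apart from KO1 the mice were close together, and the log2 fold change was -0.06 (SE 0.13, edgeR p = 0.652, exact permutation p = 0.771). Over the 9 mice, the remaining S phase genes ranged from 4.79 to 8.47 CPM (*Cdc6*), 14.6 to 28.7 (*Cdt1*), 19.96 to 28.8 (*Gins2*), 54.0 to 81.4 (*Rrm1*), 13.9 to 28.5 (*Tyms*) and 25.9 to 54.5 (*Uhrf1*), with KO1 the lowest in each but *Rrm1*.

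The proliferation marker *Mki67* (chr7:135689784-135716361, ENSMUSG00000031004) stood at 121, 185 and 178 CPM in KO1, KO3 and KO5, at 139, 135, 194 and 148 in WT1 to WT4, and at 139 and 169 in KO2 and KO4. The KO mean of 161 ± 34.8 (SD, n = 3) and the WT mean of 154 ± 27.1 (SD, n = 4) lay within the spread of either group. The log2 fold change was 0.06 (SE 0.17, edgeR p = 0.735, exact permutation p = 0.771). *Top2a* (chr11:98992943-99024189, ENSMUSG00000020914) stood at 85.5, 135 and 117 CPM against 95.9, 88.3, 162 and 129, with 99.2 and 125.8 in KO2 and KO4. WT3 was the highest mouse, and the log2 fold change was -0.09 (SE 0.22, edgeR p = 0.709, exact permutation p = 0.829). *Cdk1* (chr10:69335146-69352938, ENSMUSG00000019942) stood at 37.1, 58.1 and 53.4 CPM against 37.7, 42.8, 54.5 and 57.1, with 39.1 and 63.9 in KO2 and KO4. Low and high mice were found in both groups, and the log2 fold change was 0.04 (SE 0.19, edgeR p = 0.852, exact permutation p = 0.886). *Ccnb1* (chr13:100778650-100786570, ENSMUSG00000041431), the cyclin partner of *Cdk1*, stood at 18.5, 24.7 and 17.2 CPM against 17.4, 16.8, 29.5 and 21.3, with 17.5 and 22.6 in KO2 and KO4. Its log2 fold change was -0.08 (SE 0.21, edgeR p = 0.693, exact permutation p = 0.857).

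*Plk1* (chr7:122159439-122169873, ENSMUSG00000030867), a kinase of mitotic entry and spindle assembly, stood at 11.8, 17.5 and 13.4 CPM in KO1, KO3 and KO5, at 10.9, 13.7, 18.9 and 19.0 in WT1 to WT4, and at 14.4 and 15.2 in KO2 and KO4. WT3 and WT4 lay above the *Shank3Δ11(-/-)* mice, whereas WT1 was the lowest of all. The log2 fold change was -0.14 (SE 0.21, edgeR p = 0.526, exact permutation p = 0.629). *Birc5* (chr11:117849251-117855743, ENSMUSG00000017716), survivin, stood at 19.8, 35.04 and 29.6 CPM against 19.8, 21.9, 25.8 and 32.8, with 21.7 and 35.8 in KO2 and KO4. KO1 and WT1 were the low mice, and the log2 fold change of 0.16, the highest of the 40, had an SE of 0.22, an edgeR p of 0.477 and an exact permutation p of 0.571. The kinetochore motor *Cenpe* (chr3:135212537-135273611, ENSMUSG00000045328) stood at 31.1, 41.3 and 33.6 CPM against 30.1, 28.9, 39.4 and 31.4, with 30.3 and 33.0 in KO2 and KO4. KO3 and WT3 were the high mice, and the log2 fold change was 0.11 (SE 0.14, edgeR p = 0.443, exact permutation p = 0.457). *Cenpf* (chr1:189640606-189688086, ENSMUSG00000026605), a kinetochore protein of G2 and M phase, stood at 32.4, 43.1 and 42.9 CPM against 37.2, 34.1, 49.4 and 40.6, with 34.1 and 38.9 in KO2 and KO4. Its log2 fold change was -0.04 (SE 0.15, edgeR p = 0.801, exact permutation p = 0.943).

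The other mitotic genes ranged over the 9 mice as follows. The cyclins *Ccna2* and *Ccnb2* ran from 55.7 to 80.2 and from 19.7 to 33.8 CPM, and *Cdc20* and *Cdc25c* from 23.1 to 37.6 and from 4.76 to 9.35. The checkpoint genes *Bub1*, *Bub1b* and *Ttk* ran from 13.8 to 22.8, 23.2 to 32.3 and 8.41 to 12.8 CPM, and the Aurora kinases *Aurka* and *Aurkb* from 9.05 to 16.1 and 20.7 to 32.1. *Cenpa*, the histone of centromeres, ran from 24.3 to 40.4 CPM. In all of these, the highest mouse was WT3, WT4, KO3 or KO4. The spindle genes *Kif11*, *Kif20a*, *Kif23*, *Nusap1*, *Tpx2* and *Prc1* ran from 31.2 to 48.1, 25.5 to 31.2, 28.9 to 39.9, 25.1 to 39.96, 32.4 to 53.8 and 22.1 to 37.2 CPM. WT3 was the highest mouse in each of the 6 but *Kif23*, where KO3 was.

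Further genes of the pathway came from lists of 99 genes beside the 40, with 50 higher and 49 lower. In edgeR, 0 of the 99 had an unadjusted p below 0.05, against 2.08% of all genes tested, and the lowest p was 0.119. A share of 0 among 99 genes lies close to that background. Of 30 other replication genes such as *Orc1*, *Cdc45* and *Lig1*, 18 lay higher and 12 lower, and the log2 fold change had a median of 0.04. Of 30 other mitotic genes such as *Ndc80*, *Nuf2* and *Kif2c*, 15 lay higher and 15 lower, with a median of 0.00. Among the 30, *Ube2c* shares 592 exon bases with the muscle gene *Tnnc2* on the other strand, and its 1638 to 2455 CPM followed the 1606 to 2430 CPM of *Tnnc2* mouse by mouse. Without it 14 lay higher and 15 lower. The level of the other mitotic genes spread over the mice much as that of the 24, from -0.25 in KO1 to 0.26 in WT3, and that of the other replication genes from -0.29 in KO1 to 0.20 in KO5. Of 24 G1 cyclins, E2F and MuvB regulators 12 were higher and 12 lower, and their mean level ran from -0.08 to 0.07. Single genes of this list varied more than their mean, with a median SD of 0.16 on the log2 scale, a 2.32-fold range over the mice in *Mybl2* and a 2.19-fold range in *Myc*. Of 15 inhibitors and genes of cell cycle exit, 5 were higher and 10 lower, and their level ran from -0.12 in WT2 to 0.17 in WT3.

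*Ccnd1*, the cyclin of early G1, stood at 78.4, 76.5 and 106 CPM in KO1, KO3 and KO5 and at 81.6, 79.8, 97.4 and 90.7 in WT1 to WT4, with a log2 fold change of -0.02 (SE 0.14, edgeR p = 0.904, exact permutation p = 0.886). *E2f1*, an activator of S phase genes, stood at 17.9, 28.3 and 23.7 CPM against 23.5, 24.1, 24.96 and 27.4 (log2 fold change -0.11, SE 0.15, edgeR p = 0.495, exact permutation p = 0.6). *Foxm1*, the activator of mitotic genes, stood at 23.1, 34.9 and 29.2 CPM against 25.2, 25.2, 35.01 and 37.4 (-0.09, SE 0.19, edgeR p = 0.645, exact permutation p = 0.714). KO1 was the lowest mouse for *E2f1* and *Foxm1*, as it was for the level of the 40 genes. *Cdkn1a*, the inhibitor p21 that rises when myoblasts leave the cycle, stood at 308, 325 and 242 CPM against 303, 337, 324 and 386, a log2 fold change of -0.22 (SE 0.13, edgeR p = 0.127, exact permutation p = 0.229). *Cdkn1b*, p27, had a log2 fold change of 0.15 (SE 0.12, edgeR p = 0.257, exact permutation p = 0.286) and a mean of 43.5 ± 7.12 CPM (SD, n = 3) against 39.0 ± 1.61 (SD, n = 4). *Cdkn1c*, p57, stood at 1737 ± 384 CPM (SD, n = 3) against 1889 ± 334 (SD, n = 4), a log2 fold change of -0.13 (SE 0.18, edgeR p = 0.483, exact permutation p = 0.514).

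The cell types that could hold the dividing cells were followed by marker lists of 10 genes each, and no marker found stood at 0 in every mouse, although *Lep* was at 0 in 8 mice, *Cfd* in 2 and *Dsg3* in 1. Myoblast and satellite cell markers summed to 660 to 806 CPM in KO1, KO3 and KO5 and to 772 to 925 CPM in WT1 to WT4, with 8 of 10 lower and *Myod1* lower at an unadjusted p below 0.05 in the 7 mice (log2 fold change -0.41), as were 2.08% of all genes tested in either direction. With all 9 mice the *Myod1* call was lost (-0.25), with KO2 the highest of all, and *Sdc4* was higher at that threshold (0.22). KO4, high in cell cycle level, had the lowest myoblast level of the 9 mice (-0.32) and KO2, low in cell cycle level, the highest (0.28). Fibroblast markers summed to 23020 to 26490 CPM against 17150 to 27230, with 7 of 10 higher and *Dpt* and *Ly6a* higher at an unadjusted p below 0.05 with 7 and with 9 mice. Endothelial markers summed to 931 to 973 CPM against 841 to 909, all 10 higher with 0 at an unadjusted p below 0.05. With 763 CPM in KO2 and 1104 in KO4, the genotypes overlapped over the 9 mice. Macrophage markers summed to 185 to 259 CPM against 196 to 251, with 8 of 10 higher and 0 at an unadjusted p below 0.05. Erythroid markers, 9 of which were found, reached 5791 CPM in KO1, the mouse of lowest cell cycle level, against 1235 to 2199 CPM in the other 8, and all 8 that were tested were higher, 0 of them at an unadjusted p below 0.05. Adipocyte markers reached 1277 CPM in KO5 and cartilage markers 527 CPM in KO4, against 246 to 485 and 123 to 263 CPM in the other mice. Of 7 adipocyte markers tested all were higher in *Shank3Δ11(-/-)* mice, 6 at an unadjusted p below 0.05 but 2 with all 9 mice (all genes tested, 2.08% with 7 mice and 2.03% with 9), and of 9 cartilage markers tested 8 were lower, 0 at that threshold. Schwann cell markers summed to 524 to 803 CPM against 437 to 550, with 6 of 10 higher and 3 higher at an unadjusted p below 0.05 but 1 with all 9 mice, and epidermal markers to 17.7 to 48.0 CPM against 20.8 to 67.7, with 6 of 10 lower and 0 below that threshold. The part of these cell types in the cell cycle level was not tested.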

How the data were processed

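Gastrocnemius RNA of 9 newborn mice was sequenced, with 1 library each. The deposited values are counts of reads per Ensembl gene, not normalized. The authors mapped reads to mm10 with HISAT2, kept concordant pairs and counted them with featureCounts. Which annotation release the authors used, and whether they counted by strand or kept reads with several matches, is not stated in the sources used here, so reads of antisense partners cannot be told apart. Positions and exon lengths came from GENCODE M21. Library totals ranged from 26444372 to 40471957 counts, and intervals rest on the spread between mice.

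KO1, KO3 and KO5 were compared with WT1 to WT4, as in the study, with genotype as the only term. Genes were filtered with filterByExpr (minimum count 10, minimum total 15) and tested with edgeR 4.0.16 in R 4.3.3 (TMM, robust quasi-likelihood), with Benjamini-Hochberg adjustment over all 21809 genes. The criterion of the study, p below 0.05 and FDR below 25%, was kept. CPM and levels per mouse used TMM factors of all 9 mice and log2 CPM a prior count of 2. The exact permutation test was two-sided, over the 35 ways to draw 3 of 7 mice, and cannot give a p below 0.0286. Alternatives were all 9 mice, no filter, DESeq2 size factors, DESeq2 1.42.0, limma-voom (limma 3.58.1), a replicate block, a Y-linked covariate and leaving out each mouse. The division by *Xist*, differences within the mice of high or low *Xist* and levels without genes that share exon bases were added after the data were seen. Figures were drawn with matplotlib 3.10.9.

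Values in every mouse are given for the 5 genes of smallest p and for *Mki67*, *Top2a*, *Pcna*, *Mcm2*, *Rrm2*, *Ccne1*, *Ccnb1*, *Cdk1*, *Plk1* and *Cenpf*, and *Ccne2* was added after its values were seen. The 40 symbols and the other lists were chosen with earlier results of these data known, and no measured value enters the rule that picks the rows.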

Additional observations from a re-analysis of the deposited data

Results flagged for a closer look

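In 3 of 88 sets of mice, 1 mouse stood far from the others of its genotype, and chance gives such a gap in about 1 set in 20. *Kif11*, the spindle motor Eg5, stood at 48.1 CPM in WT3 among the *Shank3(+/+)* mice. *Bub1*, the checkpoint kinase, stood at 22.8 CPM in WT3 in the same group. *Gins2*, of the replicative helicase, stood at 19.96 CPM in KO1 among the *Shank3Δ11(-/-)* mice.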

How the results depend on the processing

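Under the alternatives, 0 of the 40 genes passed the criterion, and of 600 single fold changes (15 alternatives for each gene) 582 moved by under 1 SE. With a replicate block in the 7 mice, 1 gene, *Mcm4*, had an unadjusted p below 0.05 (log2 fold change -0.34), against 3.87% of all genes. In that block KO1 shares its number with WT1 and KO3 with WT3, and the other mice have no partner. Its fold changes between genotypes thus rest on KO1, KO3, WT1 and WT3 alone. With the Y-linked covariate, 1 gene, *Mcm7*, had an unadjusted p below 0.05 (-0.26), against 2.73% of all genes, or 595. With 1 mouse left out, 0 genes of the 40 did. The correlations of the deviations of same-numbered mice were 0.373, 0.0524, 0.357 and 0.101 for numbers 1 to 4. Since number 2 was below 0.1 and the labels name no shared litter or day, the numbers were not taken as pairs. The cell cycle level nevertheless had the same sign in same-numbered mice. It was -0.29 and -0.20 in KO1 and WT1 and -0.10 and -0.17 in KO2 and WT2. It was 0.22 and 0.24 in KO3 and WT3 and 0.13 in both KO4 and WT4. The part of the number in the levels was not tested.

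Leaving out 1 mouse at a time moved the median log2 fold change between -0.13 and 0.09 over the 40 genes, so its direction depends on the mice used. It was -0.12 with the Y-linked covariate (S phase -0.11, mitotic -0.12). With the replicate block in 7 mice, which rests on KO1, KO3, WT1 and WT3, it was -0.09 (S phase -0.10, mitotic -0.02). With 1 mouse left out, the median ran between -0.10 and 0.11 for S phase and between -0.17 and 0.11 for mitotic genes. The difference in level then ran from -0.12 to 0.13. Ranges of the genotypes were apart in 0 to 1 of the 40 genes, with 1 gene apart without KO1, KO3, KO5 or WT3, against 12.3%, 10.3%, 6.11% and 5.66% of all genes tested. The difference in S phase less mitotic level was -0.14 within the low-*Xist* mice, where KO1 is the lone *Shank3Δ11(-/-)* mouse, -0.06 with KO2 and KO4 added to them and 0.08 within the high-*Xist* mice.

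Over all genes, the 453 with an unadjusted p below 0.05 became 972 without the filter. They became 844 with the replicate block in 7 mice, which rests on KO1, KO3, WT1 and WT3, but 452 with it in 9 mice. With 1 mouse left out they became 224 to 968 (968 without KO1, 794 without KO3, 224 without KO5). The criterion passed 0 genes, but 1 without the filter, 6 in DESeq2, 9 with the replicate block in 7 mice, 2 with it in 9 mice and 0 to 15 with 1 mouse left out (15 without KO1, 4 without KO3, 1 without WT2). The causes were not tested.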
